A study of Mus musculus with 8 samples.

Results

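Rasl11b and 9 relatives, 10 genes of the Ras superfamily, were followed in ribosome-associated RNA of midbrain dopaminergic neurons, of 21761 genes in the deposited table. The genes are Rasl11b, Rasl11a, Rasl10a, Rasl10b, Rasl12, Rem2, Rrad, Gem, Rerg and Diras2, matched by gene symbol. All 10 passed the filter on low counts, which left 15999 genes for testing. Rasl11b was selected on its lower counts after the neurotoxin in these same libraries, and the others were chosen by family as its relatives. The group differences of the 10 genes are therefore a description. The fit over all genes tested gives the calls stated once below, from which nothing is read.

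Ras-like GTPases are molecular switches that are active when bound to GTP and inactive when bound to GDP. Exchange factors load GTP, and GTPase-activating proteins hasten its hydrolysis. Most classical Ras proteins end in a cysteine-containing CAAX motif, to which a lipid is attached that holds them at membranes. Several of the genes described here depart from that plan, either at this end or in the nucleotide-binding P-loop.

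The study compared 4 libraries from C57BL/6 mice given MPTP-HCl (30 mg/kg free base by daily intraperitoneal injection for 5 days) with 4 libraries from C57BL/6 mice given saline on the same schedule. Tissue was taken 4 days after the last injection in both groups. MPTP is a toxin whose metabolite enters dopaminergic neurons and inhibits mitochondrial complex I. RNA was isolated by translating ribosome affinity purification (TRAP), and the sources used here give neither the promoter that drives the ribosomal tag nor the age of the mice. The protocol covers nigral and ventral tegmental neurons combined or apart without saying which applies, and the name of the deposited counts includes SN, so the neurons sampled may be nigral alone or both. The labels number the replicates without saying whether each came from 1 animal or from a pool, so the spread between libraries may be partly technical.

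Library totals ran from 54192354 to 78892061 counts. All 15 dopaminergic markers examined had counts in every library, with a summed level of 9253 to 10970.3 CPM (counts per 1000000 counts of the scaled library) in MPTP and 12777 to 13784 CPM in saline 1, 2 and 4. The library saline 3 stood apart, at 8270 CPM, and on the first principal component it lay at -24.1 beside the MPTP libraries (-23 to -15.3), away from the other saline libraries (26.9 to 38.9). Slc6a3, Th, Aldh1a1 and Ddc are the most abundant of the 15 dopaminergic markers and weigh most in their sum. Of the 15, 12 had a log2 fold change, MPTP minus saline, below 0 and 3 above, and 0 were called in either direction. Astrocyte, oligodendrocyte, microglia and endothelial markers had counts in every library too, 12 of 12 in each list. The summed oligodendrocyte level was 1199.5 to 1386 CPM in MPTP, 828.5 to 995.7 CPM in saline 1, 2 and 4, and 1755 CPM in saline 3. The summed astrocyte level was 589.1 to 662.5 CPM in MPTP, 520.1 to 555.8 CPM in saline 1, 2 and 4, and 722.2 CPM in saline 3. Microglial sums were 58.6 to 69.4 CPM under MPTP and 53.6 to 66.2 CPM under saline, and endothelial sums 19.1 to 27.5 CPM and 18.7 to 33.9 CPM. Markers of other neurons summed to 342.9 to 476.4 CPM in MPTP and 326.6 to 362.1 CPM in saline 1, 2 and 4. In saline 3 they summed to 581.2 CPM.

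The coding ends of the 10 genes show which of them have a cysteine codon where a CAAX motif would begin. They were chosen for display because most classical Ras proteins end in that motif. Each line below gives the last 15 coding bases, stop codon included, of the principal GENCODE vM21 transcript (GRCm38), 5′ to 3′. Capitals mark a cysteine codon at the fourth place before the stop.
Rasl11b: gtcacgtcggtctga
Rasl11a: tccgccctggggtga
Rasl10a: TGCagcctcatgtga
Rasl10b: TGCgccatcatgtga
Rasl12: ttcaagatcttctga
Rem2: ctctctgtgctctga
Rrad: ctctctgttctctaa
Gem: ctgtctgtgctctag
Rerg: aaaatcagtagttag
Diras2: TGCgtggtcatgtga

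The cysteine codon was present in Rasl10a, Rasl10b and Diras2, 3 of the 10 genes. Of 25 other genes of the Ras branch it was present in 19, and over 21504 protein-coding genes in 2.99%. Rem2, Rrad and Gem, which form the RGK subfamily, had no such codon, and any pair of them matched in 12 or 13 of these 15 bases. Rasl11b and Rasl11a also lacked it, and matched each other in 7 of the 15 bases.

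The P-loop, which cradles the phosphates of the bound nucleotide, was found in all 10 genes by its pattern of a glycine codon, 4 free codons, a glycine codon, a lysine codon and a serine or threonine codon. The lines below give these coding bases for Rasl11b, its paralog Rasl11a, Rem2, Gem and Diras2, 5′ to 3′, to show how the free codons differ. Capitals mark the fixed codons.
Rasl11b: GGGgccagcggcgtgGGCAAGACC
Rasl11a: GGAgcgggttgtgtgGGCAAGAGC
Rem2: GGGgagagtggcgtgGGCAAGAGC
Gem: GGGgagcaaggagtgGGCAAGTCC
Diras2: GGGgcaggcggtgttGGCAAGAGC

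The third codon of this stretch encodes glycine in classical Ras. It was a glycine codon in Rasl11a and Diras2, 2 of the 10 genes, and in 16 of the 25 other Ras-branch genes. In Rasl11b the third codon is agc, for serine. The stretch begins at codon 39 of 247 in Rasl11b, codon 34 of 242 in Rasl11a, codon 122 of 341 in Rem2, codon 81 of 295 in Gem and codon 14 of 199 in Diras2.

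Rasl11b lies on chromosome 5 (74195286 to 74199481, plus strand, GRCm38), and no exon of another gene in GENCODE overlaps its exons. None of the 2057 distinct 100-base stretches of its transcripts occurs in a transcript of another gene, Rasl11a included. Its protein is a small GTPase without a CAAX end. In the MPTP libraries Rasl11b was at 11.7, 10.9, 10.7 and 10.6 CPM for replicates 1 to 4. In the saline libraries it was at 24.4, 24.8, 15.4 and 20.5 CPM. Every MPTP library was below every saline library, and saline 3 was the lowest of its group. These values rest on 724 to 962 counts in MPTP and 967 to 1655 counts in saline.

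The mean of Rasl11b was 10.99 ± 0.510 CPM under MPTP and 21.3 ± 4.38 CPM under saline (SD, n = 4 per group), which is 1.93-fold more in saline. The log2 fold change, MPTP minus saline, was -0.95 (SE 0.15). The spread was unequal: the SD was 4.64% of the mean in MPTP and 20.6% in saline. Without saline 3 the log2 fold change was -1.08 (SE 0.13), and with a non-neuronal marker score as covariate it was -0.80 (SE 0.14). Saline 3 had the lowest summed dopaminergic marker level of the 8 libraries and the lowest Rasl11b of the saline libraries, which was above each MPTP library. That is a single library, and the part of cell composition in the difference was not tested. In purified bulk RNA, fewer cells that express a gene and less RNA of that gene per cell cannot be told apart.

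**Figure D1:**
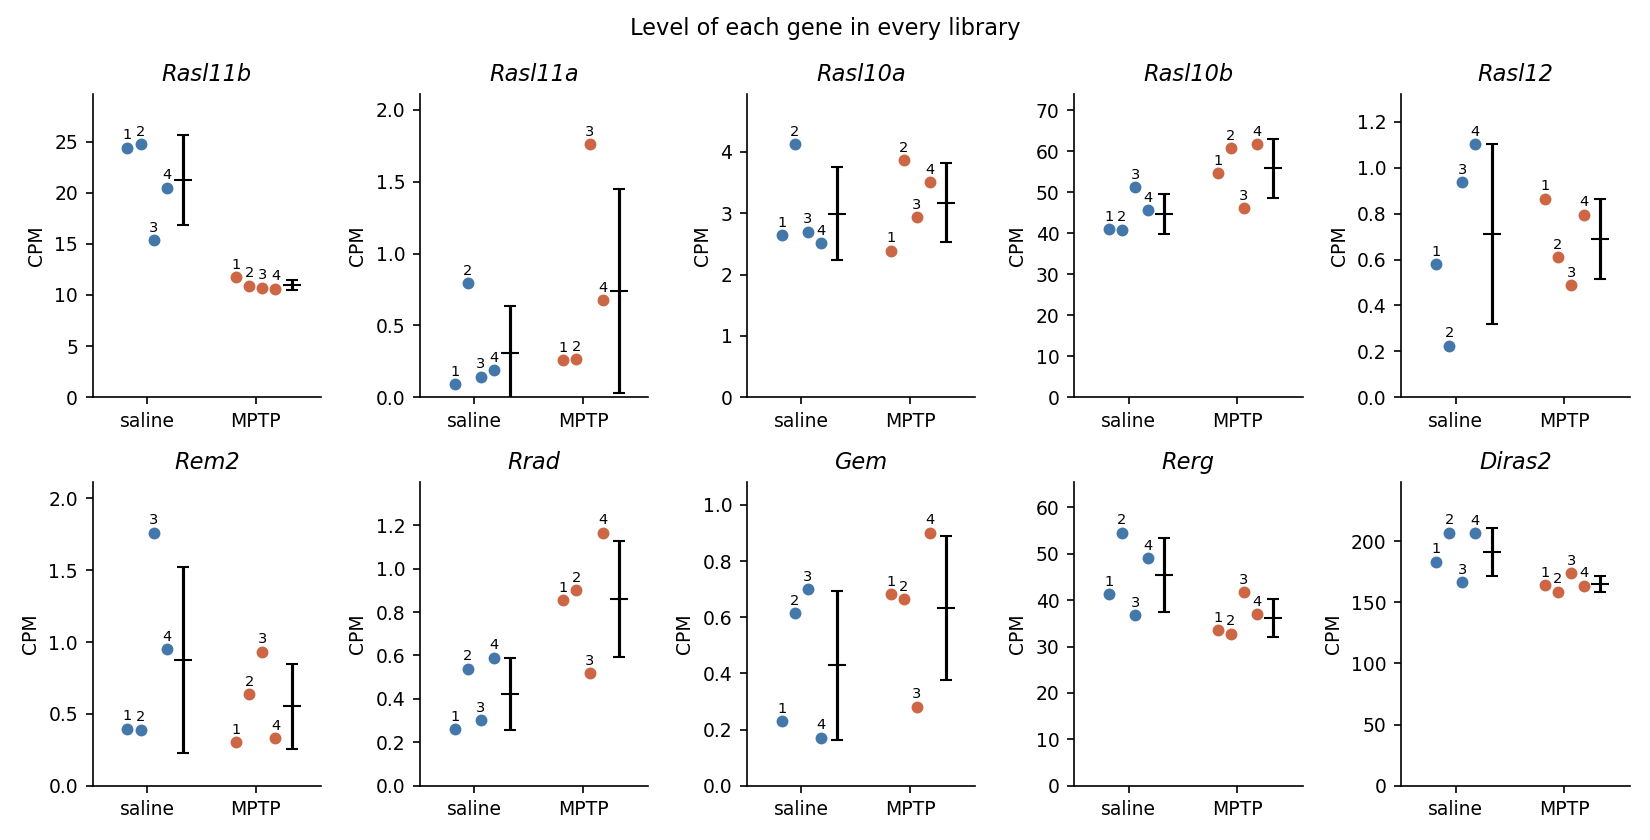
Level of each of the 10 genes in every library, in CPM on a linear axis from 0, with saline in blue and MPTP in orange. Points are libraries with their replicate number, and the bar beside them is the mean ± SD (n = 4); a lower bar that would pass below 0 ends at the axis. The Rasl11b points of the 2 groups are apart, 10.6 to 11.7 CPM under MPTP and 15.4 to 24.8 CPM under saline, and those of the other genes overlap.

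Of the 10 genes, 1 passed an adjusted p of 0.05 in edgeR's quasi-likelihood test, in the lower direction, where 0.0313% of all 15999 genes tested were called lower and 0.075% higher. That gene is Rasl11b, and its place in the list was decided by this call. The other 9 did not pass (adjusted p = 0.429 to 0.991, edgeR). Groups did not overlap for 1 of the 10 genes, again Rasl11b, against 4.19% of all genes tested. Without saline 3 they did not overlap for 3 of the 10, Rasl11b, Diras2 and Rasl10b, against 14.8% of all genes tested. Without MPTP 3 they did not overlap for 4, the same 3 and Rrad, against 8.71%. Without saline 2, Rasl11a was apart as well as Rasl11b, and the share of all genes was not computed there. Leaving out any of the other libraries left Rasl11b alone apart. The settings without saline 3 and without MPTP 3 thus gave the highest counts, and each count includes Rasl11b, which was selected on its difference. Log2 fold changes were above 0 in 5 of the genes and below 0 in 5, with a median of 0.02, and the median over all genes tested was 0.00. No common direction was seen among the 10 genes.

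Rasl11a, the nearest relative of Rasl11b by name and a nucleolar regulator of ribosomal RNA synthesis, lies on the same chromosome (146845071 to 146847726, plus strand). It was scarce and uneven. Its MPTP libraries were at 0.256, 0.263, 1.76 and 0.676 CPM and its saline libraries at 0.0917, 0.793, 0.143 and 0.190 CPM for replicates 1 to 4. The groups overlapped, and the counts behind these values were 6 to 119. The log2 fold change was 1.27 (SE 0.82), and over the alternative settings it ranged from 0.38 to 2.38. Rasl11a was thus above 0 where Rasl11b was below, with an error that spans a wide range.

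Rasl10b, a small GTPase with a CAAX end, lies on chromosome 11 (83409137 to 83421039, plus strand). It was at 54.6, 60.8, 46.1 and 61.7 CPM in MPTP replicates 1 to 4. Its saline replicates 1 to 4 were at 41.0, 40.8, 51.2 and 45.7 CPM. The highest saline library, saline 3, and the lowest MPTP library, MPTP 3, are what made the groups overlap. The mean was 55.8 ± 7.18 CPM under MPTP and 44.7 ± 4.89 CPM under saline (SD, n = 4 per group), and Rasl10b had a log2 fold change of 0.32 (SE 0.11). Its close relative Rasl10a is reported as an inhibitor of cell growth. Rasl10a was at 3.17 ± 0.649 CPM under MPTP and 2.996 ± 0.759 CPM under saline (SD, n = 4 per group), with a log2 fold change of 0.08 (SE 0.26). The difference between these relatives was not tested.

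Diras2, a GTPase of the brain, was the most abundant of the 10 genes. It lies on chromosome 13 (52504380 to 52531279, minus strand) and was at 164, 159, 174 and 164 CPM in MPTP replicates 1 to 4. Saline replicates 1 to 4 were at 183, 207, 167 and 207 CPM. Of the saline libraries, saline 3 alone lay inside the MPTP range. With all libraries its log2 fold change was -0.21 (SE 0.09). It was -0.27 (SE 0.08) without saline 3 and -0.12 (SE 0.08) with the non-neuronal score as covariate.

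Rerg, an oestrogen-regulated growth inhibitor, lies on chromosome 6 (137054825 to 137170497, minus strand). It was at 33.5, 32.7, 41.7 and 36.9 CPM under MPTP and at 41.4, 54.6, 36.8 and 49.0 CPM under saline, replicates 1 to 4. Saline 3 was again the lowest of its group, and the groups overlapped. The log2 fold change was -0.33 (SE 0.12), which was -0.41 (SE 0.12) without saline 3 and -0.18 (SE 0.10) with the non-neuronal score as covariate. For Rerg and Diras2 the covariate thus brought the difference nearer to 0 by more than 1.5 times. For these genes too, the part of cell composition was not tested.

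**Figure D2:**
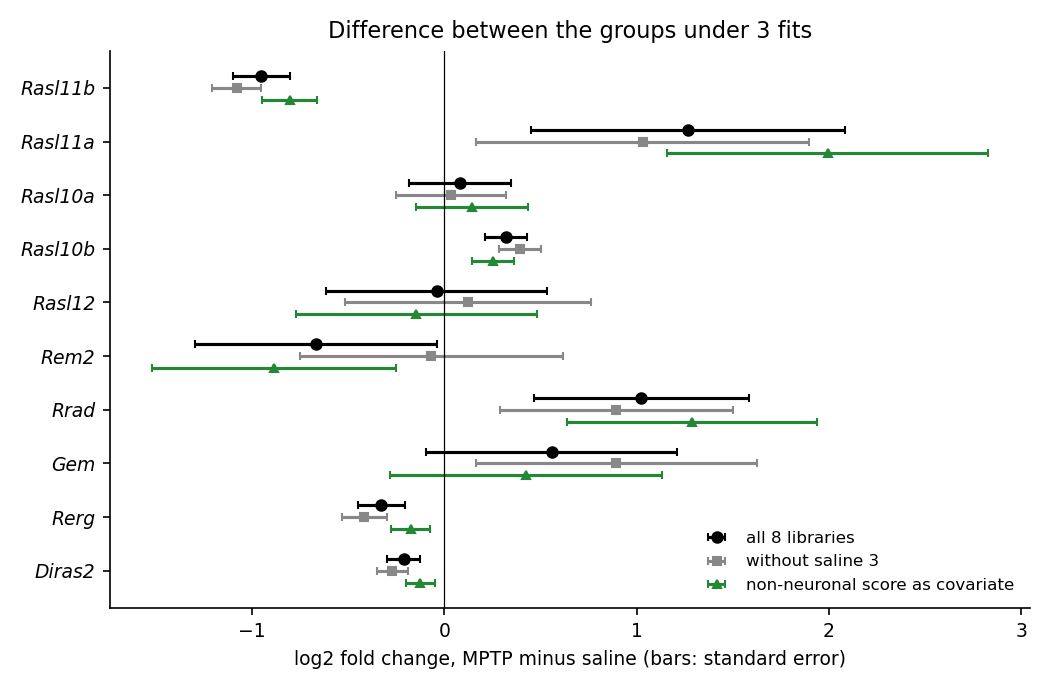
Log2 fold change, MPTP minus saline, of each gene with all 8 libraries (circles), without saline 3 (squares) and with the non-neuronal marker score as covariate (triangles). Bars are standard errors. Rasl11b stays between -1.08 and -0.80 under these fits, and the scarce genes Rasl11a, Rasl12, Rem2, Rrad and Gem have the widest bars.

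The RGK genes encode GTPases that bind the beta subunits of voltage-gated calcium channels and inhibit the channels. All 3 were scarce here, with 9 to 111 counts per library. Rrad, first known from muscle, was at 0.854, 0.900, 0.518 and 1.17 CPM under MPTP and at 0.260, 0.538, 0.302 and 0.590 CPM under saline, replicates 1 to 4. MPTP 3 alone lay within the saline range, and the log2 fold change was 1.03 (SE 0.56). Of the exonic bases of Rrad, 8.94% overlap the antisense gene Gm33023. Of its 100-base stretches, 2.67% also occur there, so reads of the 2 genes cannot be fully told apart in libraries that do not mark strand.

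Gem, an RGK gene induced by mitogens, was at 0.683, 0.665, 0.281 and 0.901 CPM under MPTP and at 0.229, 0.613, 0.699 and 0.171 CPM under saline, replicates 1 to 4. Its log2 fold change was 0.56 (SE 0.65). Rem2, an activity-regulated RGK gene of neurons, was at 0.305, 0.637, 0.933 and 0.331 CPM under MPTP and at 0.398, 0.389, 1.76 and 0.951 CPM under saline. Its log2 fold change was -0.67 (SE 0.63) with all libraries and -0.07 (SE 0.69) without saline 3, its highest library. Each of the 3 RGK genes overlapped between the groups, and their errors leave no direction for Gem or Rem2. Rrad did not pass the test (adjusted p = 0.625, edgeR), so its direction is not settled. Rasl12, a little-studied relative, was at 0.690 ± 0.172 CPM under MPTP and 0.711 ± 0.391 CPM under saline (SD, n = 4 per group), with a log2 fold change of -0.04 (SE 0.57).

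Levels can be compared between genes only per length, here as CPM per kilobase (1000 bases) of exon. The exon lengths are from GENCODE vM21, and the annotation behind the deposited counts is not known, so the order is approximate. Diras2 was highest in saline at 39.9 ± 4.10, followed by Rerg at 16.6 ± 2.89, Rasl10b at 11.1 ± 1.22 and Rasl11b at 9.84 ± 2.03 (SD, n = 4 per group). The ranges of Rasl10b and Rasl11b overlapped in saline, while Diras2 and Rerg were each apart from the next gene. Rasl10a followed at 2.12 ± 0.537, apart from the genes on either side. The other 5 genes lay between 0.108 and 0.389, each overlapping the next in this order. In MPTP, Rasl11b was at 5.09 ± 0.236 and Rasl10b at 13.9 ± 1.79 (SD, n = 4 per group), and their ranges no longer overlapped.

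**Figure D3:**
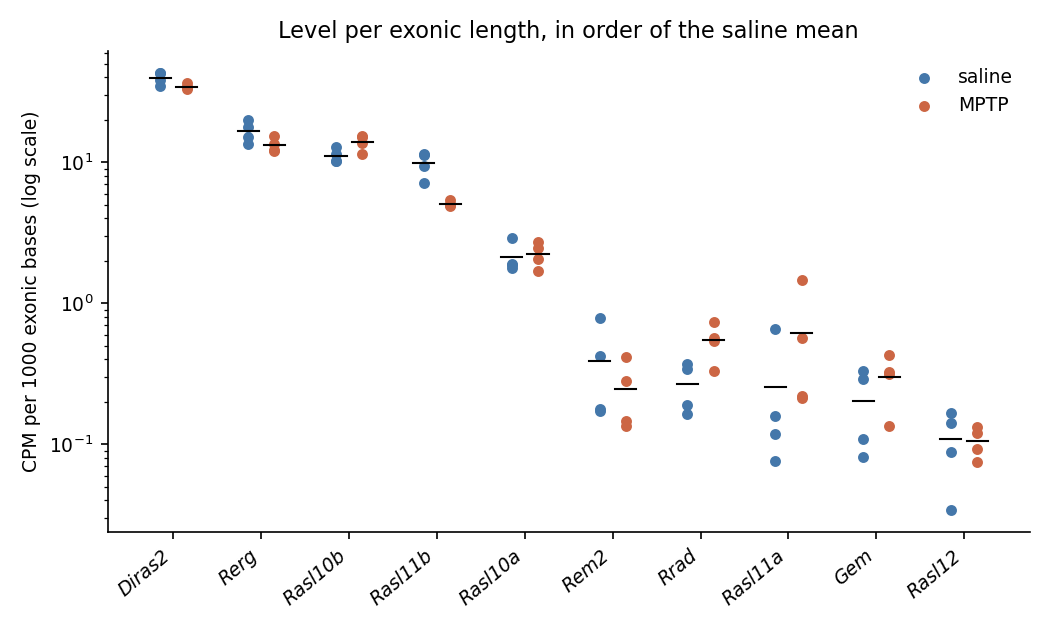
Level of each gene per kilobase of exon, on a log axis, ordered by the saline mean. Points are libraries (blue saline, orange MPTP) and short lines are means of 4. Diras2, Rerg, Rasl10b and Rasl11b lie above 4, Rasl10a near 2, and the other 5 genes below 2.

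Which other genes varied like Rasl11b was asked over the 8 libraries by Pearson correlation of log2 CPM. The 9783 genes compared had a mean log2 CPM of at least 3. Predicted, clone-named and unnamed genes, and those for microRNA or snoRNA, were passed over. Of the genes compared, the most similar was Wdr37, a WD-repeat protein (r = 0.995). Msi2, a Musashi RNA-binding protein, and Vps35, a retromer subunit linked to familial Parkinson disease, followed with r = 0.981 each. Rnf6, a ubiquitin ligase, had r = 0.976 and Ppp1cb, a catalytic subunit of protein phosphatase 1, r = 0.975. The median over the compared genes was 0.06. The 8 libraries share the group difference and the offset of saline 3, so these values describe a pattern and carry no test.

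These 5 genes were chosen by their likeness to Rasl11b, so their values are given as a description. Vps35 was at 92.3, 92.1, 92.8 and 90.4 CPM under MPTP and at 125, 126, 97.8 and 113 CPM under saline, replicates 1 to 4. Saline 3 was its lowest saline library. The log2 fold change was -0.33 (SE 0.09) for Vps35, -0.26 (SE 0.08) for Wdr37, -0.60 (SE 0.11) for Msi2, -0.23 (SE 0.08) for Rnf6 and -0.34 (SE 0.08) for Ppp1cb. The value of Rasl11b, -0.95, was the farthest from 0 of these 6 genes, but Rasl11b was selected on this difference and the others were not.

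**Figure D4:**
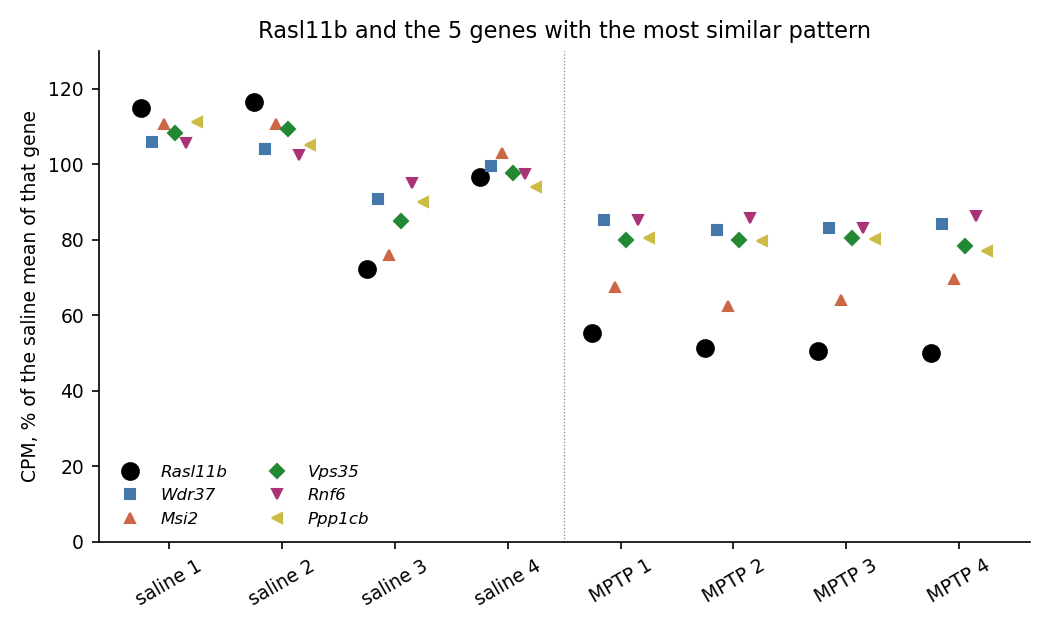
CPM of Rasl11b and of the 5 compared genes most correlated with it, each as a percentage of its own saline mean, by library. Rasl11b (large black circles) is at 49.9% to 55.2% in MPTP and 72.2% in saline 3, while Wdr37 is at 82.5% to 85.3% in MPTP and 90.9% in saline 3.

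The protein-coding neighbours of Rasl11b within 500000 bases had smaller log2 fold changes than Rasl11b, which was selected on its difference. Scfd2 is read from the other strand, and its transcript ends 5335 bases beyond Rasl11b. It had a log2 fold change of -0.18 (SE 0.16). Usp46, Fip1l1 and Lnx1 had -0.12 (SE 0.09), -0.15 (SE 0.09) and -0.11 (SE 0.09). All 4 overlapped between the groups and none passed the test (adjusted p = 0.645 to 0.792, edgeR).

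Among the other Ras-branch GTPases, 22 of 25 were tested, and edgeR called 0 higher and 0 lower. Log2 fold changes were below 0 in 17 and above 0 in 5, with a median of -0.13 (0.00 over all genes tested). Ralb, which acts in exocytosis, was at 19.2 ± 1.01 CPM under MPTP and 23.1 ± 2.35 CPM under saline (SD, n = 4 per group, adjusted p = 0.506, edgeR). It was the 1 gene of the 22 whose groups did not overlap, against 4.19% of all genes tested. Rras2 was at 5.53 ± 0.484 and 6.95 ± 0.831 CPM (SD, n = 4 per group, adjusted p = 0.607, edgeR).

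The regulators showed no called gene either. Of 25 exchange factors 15 were above 0 and 10 below (median 0.01). The Ras exchange factor Sos1 was at 115 ± 6.54 CPM under MPTP and 137 ± 11.6 CPM under saline (SD, n = 4 per group, adjusted p = 0.439, edgeR). Among the 25, it was the 1 gene whose groups did not overlap, against 4.19% of all genes tested. Rgl3, of the Ral exchange factor family, was at 1.22 ± 0.691 and 0.396 ± 0.193 CPM (adjusted p = 0.449, edgeR). Of 20 tested GTPase-activating proteins 13 were above 0 and 7 below (median 0.02). Ralgapa1, a subunit of the Ral GTPase-activating complex, was at 108 ± 6.45 CPM under MPTP and 124 ± 3.57 CPM under saline (adjusted p = 0.491, edgeR). Rasal1 was at 3.94 ± 0.828 and 2.79 ± 0.784 CPM (adjusted p = 0.607, edgeR). In this list groups did not overlap for 1 gene lower, Ralgapa1, and 1 higher, Rasa4, against 4.19% of all genes tested.

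Downstream, 18 of 32 effectors and members of the MAP kinase cascade were above 0 and 14 below (median 0.02), with 0 called. Pik3cd, a catalytic phosphoinositide 3-kinase subunit, was at 10.1 ± 0.713 CPM under MPTP and 12.6 ± 1.5 CPM under saline. Spry2, a feedback inhibitor of this cascade, was at 21.0 ± 4.68 and 16.4 ± 2.42 CPM (each n = 4, SD, adjusted p = 0.519, edgeR). Of 22 targets and partners of the RGK proteins, 6 were above 0 and 16 below (median -0.08), again with 0 called. The calcium channel beta subunit Cacnb3 was at 99.8 ± 3.65 CPM under MPTP and 87.8 ± 6.46 CPM under saline (SD, n = 4 per group, adjusted p = 0.519, edgeR). In this list groups did not overlap for 1 gene higher, Cacnb3, and 1 lower, Calm3, against 4.19% of all genes tested. The pore subunit Cacna1e was at 94.6 ± 4.12 and 107 ± 5.29 CPM (adjusted p = 0.553, edgeR).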

How the data were processed

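The deposited table holds raw counts for 8 libraries. The submitters' processing notes name TopHat2 2.0.8 and the genome build mm10, and the sources used here do not give the counting tool, annotation or strand setting. Per the labels' protocols, a kit that amplifies small RNA inputs made the cDNA, which was read as single-end 100-base reads. Symbols that had become dates (27) were restored from RefSeq through the Entrez identifier, which also names the 90 genes with no symbol.

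Counts were analysed with edgeR 4.0.16 in R 4.3.3 (TMM scaling, filterByExpr with a minimum count of 10, robust quasi-likelihood F-test, no covariate), with Benjamini-Hochberg adjustment over all 15999 genes tested and a threshold of 0.05. A log2 fold change is the MPTP level over the saline level, and its SE is its absolute value over the root of F. CPM use TMM-scaled library sizes, and log2 CPM a prior count of 2. Library totals of 54192354 to 78892061 mean that 1 CPM is 52.6 to 82.0 counts. The amplified reads carry no molecular identifiers. A marker score is the mean log2 CPM of a list, and the non-neuronal score averages the scores for astrocytes, oligodendrocytes, microglia and endothelium. An exact permutation test, two-sided, compared scores between groups.

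The members, the gene lists and the naming rule were chosen with earlier results of these data known. The rule names all members, the 2 genes with the smallest p in each list, and the 5 compared genes most correlated with Rasl11b. Alternatives were DESeq2 size factors, upper quartile scaling, other filters, a replicate block, the non-neuronal score as covariate, leaving out each library, DESeq2 1.42.0 and limma 3.58.1 voom. On simulated counts for 15829 genes of this comparison, edgeR found 46% of 1.5-fold, 68% of 2-fold, 86% of 4-fold and 92% of 8-fold changes. Of its 156 calls, 10 were false. These rates describe the simulated counts, and whether they hold with the offset of saline 3 was not tested. In the measured data 12 genes were called higher and 5 lower with all libraries, and 138 and 159 without saline 3. Positions and coding bases are from GENCODE vM21 (GRCm38, the assembly of mm10).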

Additional observations from a re-analysis of the deposited data

Results flagged for a closer look

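In 3 of 34 sets of 4 libraries, 1 library lay far from the others of its group, where chance gives about 1 in 20. Rasl11a was at 0.793 CPM in saline 2 and at 0.0917 to 0.190 CPM in the other saline libraries. Rasl10a was at 4.13 CPM in saline 2 and at 2.51 to 2.70 CPM in the other saline libraries. The dopaminergic marker score was 7.44 in saline 3 and 7.99 to 8.04 in the other saline libraries. Without saline 3 the dopaminergic score differed by -0.29 between the groups (exact two-sided permutation p = 0.0571 over 35 arrangements, 0.0667 after Benjamini-Hochberg adjustment over 7 scores), against -0.14 with it (exact two-sided permutation p = 0.400 over 70 arrangements, 0.560 after that adjustment). Saline 3 was singled out by this same score, so the change in p follows from that choice and is not a test.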

How the results depend on the processing

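The log2 fold change of Rasl11b kept its sign under all 16 alternative settings, from -1.08 to -0.80, and from -1.08 to -0.87 when each library was left out. The call for which it was selected ended without MPTP 2, MPTP 4 or saline 1, and these fits use the values that selected it. With saline 3 left out and the non-neuronal score as covariate together, chosen after seeing the data, it was -1.15 (SE 0.23) and the call also ended, Rerg was at -0.03, Rem2 at 0.07, Gem at 1.46 and Rasl11a at 4.21. The number of genes called higher was 12 and lower 5. Leaving out single libraries gave 8 to 138 higher and 0 to 159 lower, the highest both without saline 3. The counts were 25 and 28 with DESeq2, 7 higher with a mean CPM of at least 5, and 16 lower with saline 3 left out and the covariate. Where 0 lower genes were called, without MPTP 4 or saline 1, 527 and 434 lower genes had an unadjusted p under 0.05. The counts of genes whose groups do not overlap without a library were added after seeing the data. Rasl12 changed sign in 6 of 15 alternatives and Rasl10a in 1 of 15. The replicate block gave -0.93 for Rasl11b, with 10 genes higher and 4 lower. Deviations of same-numbered libraries from their group means correlated with r of -0.12 to 0.04 across genes. No pairing by number was seen in these values, which cannot show how the libraries were prepared. The non-neuronal, astrocyte, oligodendrocyte and other-neuron scores, which did not separate the groups with all libraries (exact permutation p = 0.229 to 0.800), each reached an exact permutation p of 0.0286 without saline 3, the smallest possible (0.05 after Benjamini-Hochberg adjustment over 7 scores, which is not under the threshold). Saline 3 was the highest saline library on each of these scores, so the lower p follows from leaving it out and is not a test. Counts of 6 to 119 limit what can be said of Rasl11a, Rasl12, Rem2, Rrad and Gem.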

Other observations

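Rasl11b has been linked to transforming growth factor beta, so genes of that pathway were examined as well. Of 17 tested genes of TGF-beta and Nodal signalling, 12 had a log2 fold change above 0 and 5 below, with a median of 0.13, and edgeR called 0. The activin receptor genes Acvr2a and Acvr1c led the list, at 32.6 ± 2.91 and 4.37 ± 1.62 CPM under MPTP and at 25.1 ± 4.01 and 2.70 ± 0.645 CPM under saline (SD, n = 4 per group, adjusted p = 0.415 and 0.517, edgeR). Both overlapped between the groups.

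Genes of CAAX lipid attachment, processing and related carriers were all tested, 9 of 9, with 3 above 0 and 6 below (median -0.01) and 0 called. Golga7, a partner of the Ras palmitoyltransferase, was at 102 ± 6.94 CPM under MPTP and 113 ± 5.82 CPM under saline. Pggt1b, a subunit of a protein prenyltransferase, was at 10.1 ± 0.548 and 11.5 ± 1.24 CPM (SD, n = 4 per group, adjusted p = 0.628 and 0.725, edgeR).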
